A study of Mus musculus with 5 samples.

Results

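The comparison described here sets chemically induced neural progenitor cells (ciNPC) against the mouse fibroblasts (MEF) that stand for their starting state, and describes what the converted cells gained and lost. Arrays were chosen by their labels: the 3 ciNPC arrays and the 1 MEF array, 4 of the 5 arrays of the study. The ciNPC were made, per the series title, with mixtures of chemicals under low oxygen. The cells were taken at passage 5 (p5, 1 array) or passage 13 (p13, 2 arrays). The labels describe all samples as primary cells and name no compound, oxygen level, strain, embryo age or culture medium, and whether the p13 samples were grown as separate cultures is left unstated. The p-values thus rest on the spread among these arrays alone, part or all of which may be technical. The remaining array held neural progenitors from mouse brain (NPC, the control), and its levels are given beside some genes for reference, with no test.

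Fibroblasts are mesenchymal cells that build connective tissue. They secrete fibrillar collagens, elastic fibre proteins and matricellular proteins, hold on to them through integrins, and pull on them with actomyosin stress fibres. Neural progenitors divide to give neurons and glia, and are held in that state by transcription factors of the Sox, Pou3f and basic helix-loop-helix families. Their matrix is poor in fibrillar collagen and rich in proteoglycans such as brevican and neurocan.

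RNA was labelled with 1 dye (Cy3) and hybridised to arrays of 60-base probes. A level is the log2 processed signal of a probe minus the 75th percentile of its array, so 0 is that percentile. Differences were taken between arrays on the same probe. Levels were ranked across probes to pick the probe of a gene and genes to name, and such ranks do not measure relative RNA amounts. Spots clearly above background made up 57.6% on the MEF array and 47.9% to 54.1% on the ciNPC arrays, and no spot was saturated. The spike-in slope of ciNPC p13 replicate 2 (0.803) lay outside the accepted range of the scanner software, and that of the other arrays (0.915 to 0.987) lay within it. All ciNPC arrays shared slide 2 and scan 2, while MEF and NPC shared slide 1 and scan 1, so for every difference below the cell type and the slide cannot be told apart. With 1 MEF array, the test assumed that MEF varies between arrays as ciNPC do. These are bulk samples, in which fewer cells of a type and less RNA per cell cannot be told apart.

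Of 16228 genes tested with limma, 2483 were higher and 2483 were lower in ciNPC than in MEF by the 2 limits used here, an adjusted p (Benjamini-Hochberg) under 0.05 and a change of 2-fold or more, 15.3% in each direction and 30.6% in all. "Higher" and "lower" as counts refer to genes that passed both limits. The sizes were not alike. At least 8-fold apart were 614 higher and 368 lower genes, and at least 32-fold apart were 204 higher and 25 lower genes. Among genes well above background on all 4 arrays these counts were 240 and 219, and 59 and 12. Of the genes that passed, 2168 (87.3%) of the higher and 2079 (83.7%) of the lower were at least 2-fold apart on each ciNPC array. The median SD between the ciNPC arrays was 0.154 over 12323 genes above background on all 4 arrays. Over all genes that passed, the median difference was 1.87 for higher and -1.74 for lower genes. These genes were picked for a change of 2-fold or more, so the size of their medians beside the SD is no separate evidence.

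**Figure D1:**
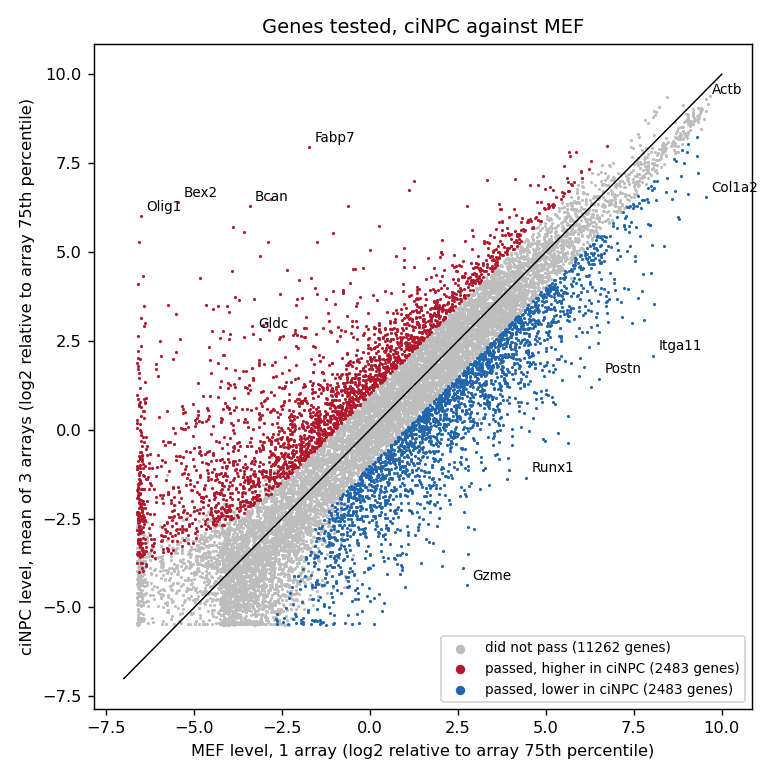
Level of each gene in MEF (horizontal axis, 1 array) and mean level over the 3 ciNPC arrays (vertical axis), both as log2 relative to the array's 75th percentile; red and blue points are the 2483 higher and 2483 lower genes, grey points did not pass, and the line marks equal levels. Many red points stand in a column at the left edge, where the MEF probe has no signal above background, while Actb lies near the line.

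The gene lists fell into opposed groups. Of 37 neural transcription factors tested, 28 were higher and 3 lower (15.3% of all genes in each direction), and of 39 mitosis genes 30 were higher. In the other direction stood fibrillar collagens with 11 of 14 lower, elastic fibre genes with 17 of 22, matricellular and secreted proteins with 30 of 40 and actomyosin genes with 25 of 34. The synapse, cytoskeleton, RNA-binding, chromatin, growth factor receptor and one-carbon lists held higher and lower members. Their lower shares were 12.5%, 16.2%, 15.6%, 11.6%, 30.6% and 22.7% in that order, so the first 4 lay near or below the 15.3% of all genes. Ion channel (11.6% lower) and glial transport genes (10.3% lower) also held both.

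**Figure D2:**
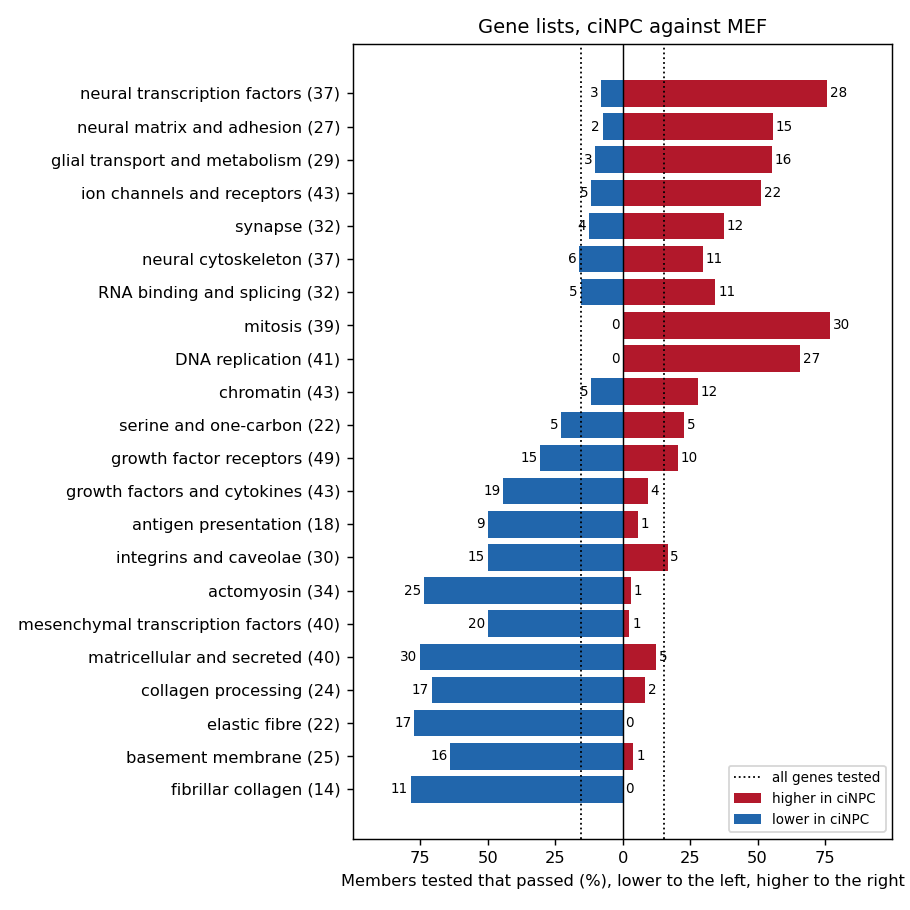
Share of the tested members of each of 22 gene lists that passed as higher (red, to the right) or lower (blue, to the left) in ciNPC than in MEF, with the number of members at the bar and the number tested in brackets; dotted lines mark the 15.3% of all genes that passed in each direction. The neural transcription factor, mitosis and DNA replication bars reach furthest to the right, and the matrix and actomyosin bars furthest to the left.

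Some genes came up from background in ciNPC. On every ciNPC array and on no MEF probe, 367 genes (2.26%) were well above background, and 358 of them passed. For these a fold is a lower bound, taken against the lowest measurable signal of the MEF array. An adjusted p beside a bound belongs to the fitted difference, with dim values as measured, and not to the bound. These genes were picked by signal in ciNPC alone, which favours a pass as higher, so the 358 is no separate evidence of gain. Bex2, a small X-linked protein of neural cells probed on chromosome X at 132601237 to 132601296 (mm9), had levels of 6.76, 6.27 and 6.18 on ciNPC p5, p13 replicate 1 and p13 replicate 2, the order used from here on, and was not above background in MEF (-5.46). It was at least 1661-fold higher (adjusted p 1.02e-06). Its neighbour Bex4 had 3.87, 3.33 and 3.28, at least 221-fold above MEF (5.47e-06). In both genes the p5 array was the highest of the ciNPC arrays, and no ciNPC array came near the MEF value. Signalling and membrane genes of this set included the protein kinase C gene Prkcb (4.24, 4.45 and 4.32, at least 396-fold), the astrocyte membrane protein gene Mlc1 (3.59, 4.91 and 4.32, at least 380-fold) and the immunoglobulin superfamily gene Igsf21 (3.49, 3.33 and 3.59, at least 217-fold). Pipox, a peroxisomal oxidase of pipecolic acid and sarcosine, was at 3.47, 3.58 and 3.49 and at least 224-fold higher, and Prr18 at 3.80, 4.23 and 4.28 and at least 338-fold higher. Of these, Mlc1 varied most between the ciNPC arrays.

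Transcription factors of neural progenitors rose as a group, with a median log2 difference of 3.09 (2.73 with dim values raised to the array's lowest measurable signal) against -0.09 over all genes. Olig1, a factor of the oligodendrocyte lineage probed on chromosome 16 at 91271799 to 91271858, stood at 5.73, 6.15 and 6.12 and was below background in MEF (-6.52), at least 1255-fold apart (adjusted p 4.92e-07). Its partner Olig2 had 3.33, 3.55 and 3.52 and was at least 217-fold higher (1.02e-06). Among the SoxB factors, which keep progenitors from differentiating, Sox3 (4.90, 5.55 and 5.35) was at least 757-fold and Sox2 (1.80, 2.11 and 2.10) at least 78.7-fold higher. For these 4 genes p5 was the lowest ciNPC array. Sall3, a zinc finger factor, was at least 156-fold higher (2.67, 3.13 and 3.17).

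Other neural factors were gained too. Insm1, a zinc finger factor of neurons in formation, stood at 2.20, 1.75 and 1.64 and was at least 71.2-fold higher (adjusted p 5.98e-06). Lhx2, a factor of forebrain and eye, had 1.89, 1.80 and 1.26 against a measurable -3.53 in MEF, a difference of 5.18 (SE 0.27). Hes5, a Notch target that represses neuronal differentiation, had -0.21, 1.00 and 0.83 and was at least 28.5-fold higher. It was lowest at p5, and Lhx2 was lowest on p13 replicate 2.

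Not every neural factor was gained. Nfix, of the nuclear factor I family, had 1.87, 1.54 and 1.29 in ciNPC and 4.35 in MEF, a difference of -2.78 (SE 0.23, adjusted p 0.000175), while its relative Nfia was higher by 1.17. Gli3, a transcription factor of the hedgehog pathway, had 1.88, 1.66 and 1.76 against 3.02 in MEF (-1.26, SE 0.15). Dlx2, a factor of interneuron precursors and of branchial mesenchyme, differed by -1.78 (SE 0.41, adjusted p 0.0113), and by -1.88 with an adjusted p of 0.0522 under quantile normalisation. Sox10, a neural crest factor, had -1.92, -1.96 and -1.97 against -1.73 and did not pass (adjusted p 0.616). Of the 28 higher factors, 13 were above background on every ciNPC array and on no MEF probe, so their fold is a lower bound. When the test kept only genes above background on all 4 arrays, 13 factors remained to pass as higher.

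**Figure D3:**
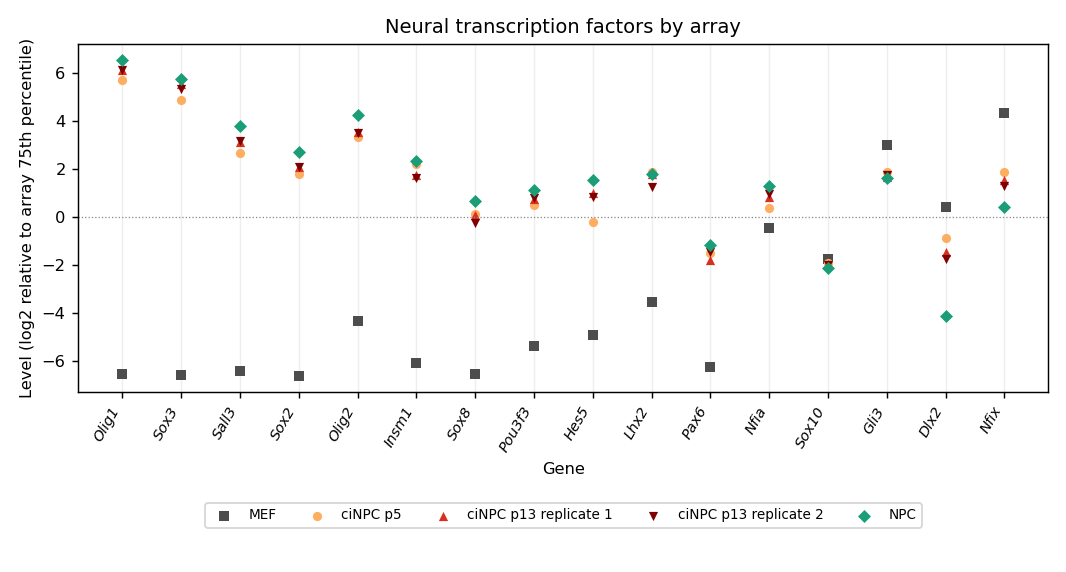
Level of 16 neural transcription factors (log2 relative to the array's 75th percentile) on the MEF array, the 3 ciNPC arrays and the NPC array, 1 point per array. From Olig1 to Nfia the MEF point lies below all ciNPC points, for Sox10 the points overlap, and for Gli3, Dlx2 and Nfix the MEF point lies above them.

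The matrix and adhesion proteins of neural tissue were gained with 15 of 27 members higher and 2 lower (median 2.59, or 2.25 at the lowest measurable signal). Among genes above background on all 4 arrays 9 were higher, and 1 was lower under quantile normalisation, the alternative percentile, the deposited value table or the mean of all probes. Bcan, the proteoglycan brevican, probed on chromosome 3 at 87791457 to 87791516, had 6.13, 6.39 and 6.35 against -3.43 in MEF and differed by 9.72 (SE 0.14, adjusted p 4.92e-07). Neurocan (Ncan) was not above background in MEF and stood at 2.15, 2.89 and 2.60, at least 115-fold higher (8.58e-06). The adhesion proteins Astn1, which guides neurons along glia, and Gpm6a, a membrane protein of growing neurites, were at least 149-fold and 91.9-fold higher. Nrcam, an adhesion molecule of axons, had 2.79, 2.70 and 2.16 against -2.60. Versican (Vcan: 2.02, 1.43 and 1.43 against 2.06) and tenascin C (Tnc: 3.19, 3.64 and 3.69 against 3.86), matrix proteins that fibroblasts make as well, did not pass.

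Cspg4, the proteoglycan NG2 of oligodendrocyte precursors and pericytes, was lower, at 2.40, 2.59 and 2.59 against 3.73 (difference -1.21, SE 0.14). Ncam1, the neural cell adhesion molecule, was lower on its brightest probe (4.90, 4.69 and 4.56 against 5.83, difference -1.11, SE 0.16), but its other probes differed by -0.52 to 1.82 and the mean of its probes by 0.06, so its direction depended on the probe. The NG2 gene thus fell in a list where most members rose.

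Glial transport and metabolism genes had 16 of 29 higher (55.2%) and 3 lower (10.3%), beside 15.3% of all genes each way, and a median of 1.40. Fabp7, the brain fatty acid binding protein of radial glia, probed on chromosome 10 at 57508039 to 57508098, had 7.78, 8.14 and 7.93 against -1.73 in MEF, a difference of 9.69 (SE 0.16, adjusted p 5.58e-07). The glutamate transporter gene Slc1a3 had 3.49, 3.91 and 3.59 against -1.26 (difference 4.92, SE 0.19). Acsbg1, an acyl-CoA synthetase of brain, differed by 6.87 (SE 0.28). Against these, Fabp4, the adipocyte fatty acid binding protein, was lower by a difference of -3.37 (SE 0.49) and above background on 2 of 3 ciNPC arrays. The glycine transporter gene Slc6a9 was lower too, at 2.97, 3.15 and 3.05 against 5.16. The glucose transporter gene Slc2a1 (difference -1.13, SE 0.28) passed only narrowly, and without p13 replicate 2 it differed by -0.92.

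Of 6 markers of mature astrocytes 2 were higher. Gfap had -3.60, -2.52 and -1.92 against -3.79 in MEF, above background on 2 of 3 ciNPC arrays, and did not pass (adjusted p 0.248). It passed without ciNPC p5, with a difference of 1.57. Aqp4, the astrocyte water channel, had -3.52, -2.75 and -3.65 against -2.32 (adjusted p 0.216). Aldh1l1, a folate enzyme used as an astrocyte marker, did rise, at 2.41, 2.73 and 2.38 against -0.95 (difference 3.46, SE 0.19). Slc1a2, the main glutamate transporter of astrocytes, was not above background in MEF and had -2.65, -1.91 and -2.78, above background on 2 of 3 ciNPC arrays on its brightest probe. It was at least 3.6-fold higher (adjusted p 0.0056) and lost its call under quantile normalisation (adjusted p 0.0683). Of the oligodendrocyte genes, Mbp (-1.14, -1.66 and -2.0 against -1.32), Mog, Cnp and Mobp did not pass. Mag did not pass either (adjusted p 0.105), but was lower under quantile normalisation and without p13 replicate 2 (difference -2.11).

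Ion channel and neurotransmitter receptor genes had 22 of 43 higher and 5 lower (median 1.48), and synapse genes 12 of 32 higher and 4 lower (median 1.00). The higher shares were 51.2% and 37.5%, and the lower shares 11.6% and 12.5%, beside 15.3% of all genes each way. Among genes above background on all 4 arrays, the ion channel counts were 8 higher and 3 lower. Kcnd3, an A-type potassium channel, had 4.48, 4.47 and 4.41 against -3.93, a difference of 8.38 (SE 0.13, adjusted p 4.92e-07), and its second measurable probe differed by 3.55. The inward rectifier Kcnj16 was at least 64.5-fold and the AMPA receptor subunit Gria4 at least 25.6-fold higher. Amph, amphiphysin of the endocytic machinery, was at least 174-fold higher (3.09, 3.27 and 3.10). The vesicle calcium sensor gene Syt1 had 2.51, 2.53 and 2.59 against -4.00 and differed by 6.55 (SE 0.15).

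Among the 4 lower synapse genes, Snap25, a membrane fusion protein of synapses, had 2.77, 2.99 and 2.79 against 5.39 in MEF, a difference of -2.55 (SE 0.14, adjusted p 4.20e-05). Stx1a, its syntaxin partner, differed by -1.47 (SE 0.35). GABA receptor subunits were split: Gabrg1 was at least 44.3-fold higher, whereas Gabrb1 was at least 3.41-fold lower and lost its call without p13 replicate 1 (adjusted p 0.0934). The neuronal calcium channel gene Cacna1a was lower, at -0.61, -0.80 and -0.84 against 1.29. Shank1, a scaffold of the postsynapse, was lower on its brightest probe (-1.40), while its other measurable probes differed by -0.05 to 0.31.

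Among 37 genes of the neural cytoskeleton 11 were higher (29.7%) and 6 lower (16.2%), beside 15.3% of all genes each way. Their median of -0.08 turned to 0.33 under quantile normalisation and in the deposited value table. It was 0.07 with the alternative percentile, 0.15 with normexp and 0.10 without p13 replicate 2. Gap43, a growth cone protein, rose most, at 6.20, 6.19 and 6.45 against -0.62 (difference 6.90, SE 0.15). The microtubule protein gene Map2 had 3.26, 2.92 and 2.61 against -3.03 (5.97, SE 0.25). Tubb3, the tubulin used as a neuron marker, ran opposite to them: it had 0.28, -0.02 and -0.16 in ciNPC and 2.77 in MEF, a difference of -2.73 (SE 0.23, adjusted p 0.000182). The nuclear lamin gene Lmna was lower at 4.30, 4.27 and 4.17 against 6.93. The intermediate filament gene Nes was higher by 2.11 (SE 0.12), while vimentin (Vim: 7.56, 7.72 and 7.74 against 7.87) did not pass. The neurofilament gene Nefl came above background on each ciNPC array (-1.99, -1.34 and -2.02) and was at least 5.70-fold higher.

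RNA-binding proteins had a median of 0.25, with 11 of 32 higher (34.4%) and 5 lower (15.6%), beside 15.3% of all genes each way. The lower count was 2 under the alternative percentile and 3 under normexp or the mean of all probes. The Rbfox splicing factors parted ways. Rbfox3, the neuronal antigen NeuN, had -0.39, 0.45 and 0.50 and was not above background in MEF (at least 22.4-fold higher, adjusted p 5.01e-05), its second measurable probe differing by 5.36. Rbfox1 had 1.68 in MEF and -3.41, -2.86 and -3.18 in ciNPC, above background on 2 of 3 arrays, a difference of -4.84 (SE 0.44). Rbfox2, the broadly used member, differed by -1.84 (SE 0.22). Lin28b, which blocks let-7 processing, was at least 11.8-fold higher, and Msi2, a progenitor RNA-binding protein, was higher by 2.03. Msi1 (-1.06, -0.21 and -0.67 against -0.72) did not pass. Nova1 was lower on its brightest probe (-1.12) and higher by the mean of its probes (1.26).

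Most genes of the cell division lists were higher. Of 41 DNA replication genes 27 were higher (median 1.26), and the others, with differences of -0.43 to 0.97, did not pass both limits. Of 39 mitosis genes 30 were higher (median 1.52), and the others, at 0.30 to 0.98, did not pass both limits. The replication clamp gene Pcna had 5.95, 5.83 and 5.78 against 3.76, and the helicase subunit Mcm2 had 3.45, 3.45 and 3.49 against 1.88. Ccnb1, the mitotic cyclin B1, had 4.89, 4.99 and 4.89 against 2.38 (2.54, SE 0.12), and the proliferation marker Mki67 had 5.82, 5.90 and 5.80 against 4.29 (1.55, SE 0.12). For these 4 genes the ciNPC arrays lay close together, far above MEF. Rfc1 (0.15), a clamp loader subunit, and Kif23 (0.30), a kinesin of cytokinesis, were the members closest to MEF and did not pass.

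Promoters of these genes, chosen after their values were seen, are shown because the higher cell division genes shared motifs in the RefSeq promoter table (GRCm38.p6), which held a promoter for 27 of the 30 higher mitosis genes. Promoters of 250 bases before to 50 after the start were searched on both strands for CCAAT, the NF-Y motif, and TTTGAA, the core of the cell cycle homology region. TTTGAA was found in 18 of 27 (66.7%) against 18.1% of all 27025 promoters and 12.7% of those of genes tested, and CCAAT in 19 of 27 (70.4%) against 37.9% and 38.4%. Among the 23 higher replication genes with a promoter, CCAAT was found in 15 (65.2%), and the E2F motifs TTTGGCG in 5 (21.7%, against 1.59% of all and 2.38% of genes tested) and TTTCGCG in 3 (13.0%, against 0.844% and 1.54%). TTTGAA was found in 4 of these 23 (17.4%). CCAAT was not particular to cell division genes. It lay in 11 of 18 promoters (61.1%) of higher neural transcription factors and 12 of 21 (57.1%) of lower actomyosin genes. Its share was 42.9% over all higher and 35.4% over all lower genes. A match describes the letters of this window and is not evidence of binding. The 250 bases before the start of Cdk1, Top2a and Mki67, chosen because both motifs lie in that stretch, are printed 5' to 3' with matches to CCAAT or TTTGAA, or to their reverse complements, in capitals.
Cdk1 (chr10:69352913-69353162, minus strand): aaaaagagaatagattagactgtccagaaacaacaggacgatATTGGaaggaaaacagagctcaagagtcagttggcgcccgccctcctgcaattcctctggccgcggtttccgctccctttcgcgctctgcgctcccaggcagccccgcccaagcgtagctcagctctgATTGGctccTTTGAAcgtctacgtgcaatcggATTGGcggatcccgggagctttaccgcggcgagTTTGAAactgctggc
Top2a (chr11:99024190-99024439, minus strand): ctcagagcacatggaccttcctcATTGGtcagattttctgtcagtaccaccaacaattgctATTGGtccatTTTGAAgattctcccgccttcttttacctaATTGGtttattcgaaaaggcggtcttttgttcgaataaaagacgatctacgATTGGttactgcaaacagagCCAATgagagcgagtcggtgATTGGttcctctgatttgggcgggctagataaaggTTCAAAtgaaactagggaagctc
Mki67 (chr7:135716380-135716629, minus strand): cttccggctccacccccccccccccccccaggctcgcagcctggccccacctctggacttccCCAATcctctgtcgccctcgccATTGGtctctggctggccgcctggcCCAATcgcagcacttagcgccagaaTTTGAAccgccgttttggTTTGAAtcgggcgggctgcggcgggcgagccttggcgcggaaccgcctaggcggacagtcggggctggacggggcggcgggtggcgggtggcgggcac
Cdk1, the mitotic kinase, had 3.36, 3.28 and 3.31 against 1.34 in MEF (difference 1.98, SE 0.12). Top2a, which untangles replicated DNA, had 3.32, 3.05 and 2.97 against 1.20 (1.91, SE 0.17). All 3 genes lay above MEF on every ciNPC array.

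Genes above background in MEF and on no ciNPC array numbered 1243 (7.66%), but only 136 of them passed. These genes were picked by signal in MEF alone, which favours a pass as lower, so the 136 is no separate evidence of loss. Their median level in MEF was -3.34, and the lowest measurable level was -4.29 on the MEF array and -3.59, -3.23 and -2.79 on the ciNPC arrays. Without p13 replicate 2 the number was 1757. Gzme, a granzyme protease, had 2.76 in MEF and -5.44, -4.55 and -3.14 in ciNPC, at least 62.4-fold lower (adjusted p 0.00101). Ndufa4l2, a mitochondrial protein induced by low oxygen in many cells and probed on chromosome 10 at 126954149 to 126954208, had 2.63 against -4.71, -4.09 and -2.87, at least 57.3-fold lower (0.000613). Aoc3, an amine oxidase of vessel wall and fat, had 0.98 in MEF and was at least 18.2-fold lower, and Tnn, the matrix protein tenascin N, had 0.90 and was at least 17.2-fold lower. None of these 4 genes was above background on any ciNPC array. The collagenase gene Mmp1b (at least 12.2-fold), the mast cell protease gene Mcpt8 (11.7-fold) and haptoglobin (Hp, 11.1-fold) were lost in the same sense.

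Fam20a and Itga11 fell most among the genes measurable on all 4 arrays. Fam20a, a secretory pathway pseudokinase, had -0.08, -0.38 and -0.62 against 5.63, a difference of -5.99 (SE 0.26, adjusted p 1.74e-05). Itga11, the collagen-binding integrin subunit of fibroblasts, probed on chromosome 9 at 62631667 to 62631726, had 2.49, 1.95 and 1.81 against 8.05 (-5.97, SE 0.26). Both kept a measurable signal in ciNPC that was highest at p5. Kif26b, an unconventional kinesin, differed by -5.27 and Lrrc15, a surface protein of fibroblasts, by -5.18. The highest of the genes measurable on all 4 arrays, besides those named above, were the non-coding RNA gene Pantr1 (9.59), the reticulon gene Rtn1 (9.31), Fam181b (9.16), the synaptic adhesion gene Lrrc4b (8.17), the nuclear pore gene Nup210 (8.01) and the growth factor gene Bmp7 (7.54).

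Transcription factors of mesenchyme were lower in 20 of 40 cases and higher in 1 (median -1.33). Runx1, a factor of blood and mesenchyme, had -1.33, -1.49 and -1.23 against 4.43 in MEF (difference -5.78, SE 0.25, adjusted p 1.87e-05), its other measurable probe differing by -3.44. Meox1, a somite factor, had -3.35, -3.47 and -1.35 against 2.79 and was above background on 2 of 3 ciNPC arrays. Tbx3 had 0.59, -0.16 and -0.20 against 4.30 (-4.23, SE 0.35), and the tendon factor Scx had -0.10, -0.65 and -0.28 against 3.66. Snai2 (-2.49) and Twist1 (-2.16), drivers of epithelial to mesenchymal transition, were lower as well. Twist2 (2.01, 1.69 and 1.66 against 2.63, difference -0.84) passed the p limit but not 2-fold, and Foxd1 (-1.15, -2.02 and -2.32 against -1.90) did not pass. Prrx1, a limb mesenchyme factor, was lower by a difference of -1.12 (SE 0.20), and by -0.92, under 2-fold, with quantile normalisation. Zeb1, a repressor of epithelial genes that neural progenitors also express, was the 1 member that rose, at 4.49, 4.75 and 4.66 against 2.53 (2.11, SE 0.14). The quantile and alternative percentile scalings and the deposited value table each counted 2 higher members.

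Fibrillar collagens were reduced but remained measurable. Of 14 genes 11 were lower (median -2.69), and 10 of those 11 were still above background on every ciNPC array. Col1a2, probed on chromosome 6 at 4490619 to 4490678, had 6.82, 6.48 and 6.33 against 9.55 in MEF, an 8.05-fold difference (log2 -3.01, SE 0.20, adjusted p 7.11e-05), and -3.74 on the NPC array. Col1a1, its partner chain, had 5.95, 5.72 and 5.6 against 7.95 (-2.19, SE 0.16). Col3a1 had 3.63, 2.83 and 2.76 against 7.78 (-4.71, SE 0.33). Col3a1 had the largest difference of these 3 genes, and all 3 were highest at p5 among the ciNPC arrays. The cartilage collagen gene Col2a1 (3.65, 3.20 and 3.18 against 2.82) did not pass.

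Basement membrane, laminin and related collagen genes had 16 of 25 lower and 1 higher (median -1.78). Col7a1, the anchoring fibril collagen, had 1.67, 1.54 and 1.36 against 5.94 (difference -4.42, SE 0.17, adjusted p 1.01e-05). Col6a2 (-4.29) and the laminin gene Lama1 (-4.19) fell to a like degree. Agrn, the heparan sulfate proteoglycan agrin that gathers receptors at synapses, was the 1 higher member, at 5.93, 5.89 and 5.87 against 4.50 (1.40, SE 0.11), while the related perlecan (Hspg2) had 3.0, 2.74 and 2.48 against 6.52 (-3.77, SE 0.21). These proteoglycans of one matrix compartment moved in opposite directions.

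Elastic fibre genes had 17 of 22 lower (median -2.55). Mfap5, a microfibril protein, had 0.20, -0.29 and -0.21 against 5.35 (difference -5.45, SE 0.25). Elastin (Eln) had -2.46, -3.05 and -2.42 against 1.40 (-4.04, SE 0.44), and Ltbp2, a latent TGF-beta binding protein, had 3.81, 3.55 and 3.39 against 7.13 (-3.55, SE 0.19). The lysyl oxidase genes Lox, Loxl1, Loxl2, Loxl3 and Loxl4, which crosslink collagen and elastin, were all lower, between -2.47 and -3.30. Fbln1 (0.52) lay above MEF on each ciNPC array but under 2-fold.

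Enzymes and chaperones that process collagen had 17 of 24 lower and 2 higher (median -1.77). The procollagen protease gene Adamts2 had 0.96, 0.52 and 0.71 against 5.26 (difference -4.53, SE 0.22), and the prolyl hydroxylase gene P4ha2 had 2.13, 2.13 and 2.00 against 5.44 (-3.35, SE 0.14). The collagen chaperone gene Serpinh1 was lower by a smaller step, 5.94, 5.54 and 5.6 against 7.56. Paralogs moved in opposite directions: Colgalt1, a collagen galactosyltransferase, was lower (-1.81) while Colgalt2 rose from below background to 1.06, 0.87 and 0.94 (at least 38.1-fold), and P3h1 and P3h3 were lower (-1.82 and -2.36) while P3h2 was higher (2.00, SE 0.36). Adamts14 (3.61, 3.82 and 3.55 against 3.65) stayed close to MEF and did not pass.

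Matricellular and secreted proteins had 30 of 40 lower and 5 higher (median -2.27). Postn, periostin, probed on chromosome 3 at 54194840 to 54194899, had 1.85, 1.14 and 1.31 against 6.51 (difference -5.08, SE 0.28, adjusted p 4.30e-05). Thbs2, an anti-angiogenic thrombospondin, had 0.77, 0.22 and 0.13 against 5.63, and Ccn5, of the CCN family, had -0.22, -0.34 and -0.36 against 4.98. Fibronectin (Fn1) kept a strong signal, at 6.92, 6.50 and 6.49 against 9.04 (-2.40, SE 0.19). Sparc (8.59, 8.81 and 8.85 against 9.48, difference -0.73) did not reach 2-fold on this probe, but its other measurable probe differed by -2.22. Among genes above background on all 4 arrays 3 were higher. The higher members were the membrane protease gene Mmp15 (at least 89.9-fold), the inhibitor Timp4 (at least 25.4-fold), the growth factor binding proteins Igfbp3 (3.79, SE 0.24) and Igfbp2 (1.05, SE 0.29), and Serpine2, a protease inhibitor made by glia (2.74, SE 0.19). Within the same families Mmp2, Mmp11, Mmp14, Mmp19, Timp1, Timp2, Timp3 and Igfbp4 to Igfbp7 were lower.

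**Figure D4:**
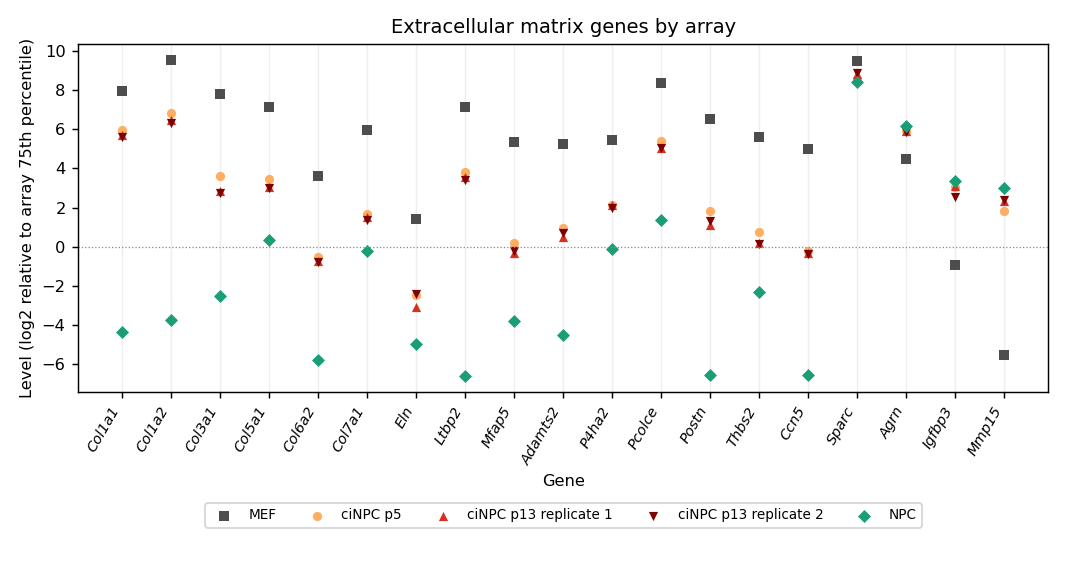
Level of 19 extracellular matrix genes (log2 relative to the array's 75th percentile) on the MEF array, the 3 ciNPC arrays and the NPC array, 1 point per array. For most genes from Col1a1 to Ccn5 the ciNPC points lie between MEF above and NPC below, Sparc changes little, and Agrn, Igfbp3 and Mmp15 are lowest in MEF.

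The contractile apparatus was reduced with 25 of 34 actomyosin genes lower and 1 higher (median -1.64). Actg2, the smooth muscle gamma actin, had 3.95, 3.57 and 3.56 against 7.62 (difference -3.93, SE 0.19, adjusted p 2.68e-05), and calponin (Cnn1) had 4.23, 3.73 and 3.74 against 7.74 (-3.84, SE 0.22). Acta2, the smooth muscle alpha actin of myofibroblasts, had 7.45, 7.11 and 7.11 against 9.33 (-2.11, SE 0.17), with -3.57 on the NPC array. Thus Acta2 fell and yet kept a strong signal in ciNPC. Tagln2 (7.70, 7.98 and 8.12 against 8.03) did not pass. Tagln3, the neuronal member of that family, was the 1 that rose, at 0.55, -0.96 and -0.81 against -2.81 (2.41, SE 0.58), and it lost its call under quantile normalisation (adjusted p 0.0572).

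Promoters of contractile genes, also chosen after their values were seen, are shown for the CArG box, the binding motif of serum response factor. Of the 25 lower members 21 had a promoter in the table, and 3 of these (14.3%) held the box. The share was 1.57% of all promoters, 1.47% of those of genes tested, 2.23% of all lower and 1.21% of all higher genes. The box was not particular to contractile genes. It lay in 2 of 18 promoters (11.1%) of higher neural transcription factors and 1 of 13 (7.69%) of higher neural matrix and adhesion genes. The 250 bases before the start of the 3 contractile genes are printed 5' to 3' with the box in capitals.
Cnn2 (chr10:79988350-79988599, plus strand): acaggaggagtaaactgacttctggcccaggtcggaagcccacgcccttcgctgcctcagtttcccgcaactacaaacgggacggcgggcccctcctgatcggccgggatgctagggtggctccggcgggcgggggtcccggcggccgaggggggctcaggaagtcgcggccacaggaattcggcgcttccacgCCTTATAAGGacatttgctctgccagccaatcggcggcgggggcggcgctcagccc
Myl9 (chr2:156775214-156775463, plus strand): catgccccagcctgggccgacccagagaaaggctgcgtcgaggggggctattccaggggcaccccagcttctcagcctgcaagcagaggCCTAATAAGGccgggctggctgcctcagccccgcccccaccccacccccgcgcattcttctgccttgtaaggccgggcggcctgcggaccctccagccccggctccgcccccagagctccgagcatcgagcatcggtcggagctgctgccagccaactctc
Vcl (chr14:20929148-20929397, plus strand): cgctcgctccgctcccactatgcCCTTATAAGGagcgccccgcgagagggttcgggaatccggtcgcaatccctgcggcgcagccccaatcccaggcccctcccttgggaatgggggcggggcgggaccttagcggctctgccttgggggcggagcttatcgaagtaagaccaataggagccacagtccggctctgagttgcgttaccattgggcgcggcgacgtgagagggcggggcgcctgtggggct
Cnn2, a calponin, had 4.15, 3.71 and 3.58 against 6.53 in MEF (difference -2.72, SE 0.22). Myl9, the regulatory myosin light chain, had 6.24, 5.74 and 5.78 against 8.79 (-2.88, SE 0.21), and Vcl, vinculin of focal adhesions, had 2.83, 2.39 and 2.23 against 3.89 (-1.40, SE 0.24). In each gene p5 lay closest to MEF.

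Receptors for the matrix moved in both directions, with 15 of 30 integrin, caveola and membrane genes lower and 5 higher (median -1.29). Besides Itga11, the subunit genes Itgb3 (0.37, -0.17 and -0.26 against 3.71), Itgb5 (3.03, 3.38 and 3.09 against 6.44), Itga5 (difference -2.41) and Itgb1 (-1.51) were lower. The laminin receptor subunit Itga6, used to sort neural stem cells, rose from 2.76 to 6.04, 6.38 and 6.47 (3.54, SE 0.18, adjusted p 3.28e-05). Itga4, a receptor for fibronectin and VCAM1, rose from -0.41 to 3.19, 3.60 and 3.66 (3.89, SE 0.20), and Itgb8, a TGF-beta activating subunit, was at least 6.4-fold higher. The caveolin gene Cav1 (0.41, 0.22 and 0.43 against 0.34) did not pass, although its coat proteins Cavin1, Cavin2 and Cavin3 were lower (-1.38, -1.23 and -2.21), the other measurable probe of Cavin1 differing by 0.08. With the mean of all probes 3 members of this list were higher.

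Serine and one-carbon metabolism, which feeds nucleotide and methyl group synthesis, had 5 of 22 genes higher and 5 lower (median 0.04, and -0.01 with normexp). Each share was 22.7%, beside 15.3% of all genes. Gldc, the decarboxylase of the glycine cleavage system, had 2.86, 2.64 and 2.59 against -3.34 in MEF (difference 6.04, SE 0.17, adjusted p 3.78e-06), and its partner Amt was at least 2.63-fold higher. Cbs, which begins the conversion of homocysteine to cysteine, had 2.72, 4.48 and 3.87 against -2.08 (5.77, SE 0.58), whereas Cth, the next enzyme, had -0.42, -0.52 and -0.34 against 1.79 (-2.22, SE 0.20). The cytosolic enzyme genes Shmt1 (2.58, SE 0.20) and Mthfd1 (1.16, SE 0.12) were higher while the mitochondrial Shmt2 (-1.37, SE 0.17) and Mthfd2 (-1.21, SE 0.24) were lower. Psat1, of serine synthesis, was at 5.84, 5.86 and 5.86 against 5.86 and did not pass.

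**Figure D5:**
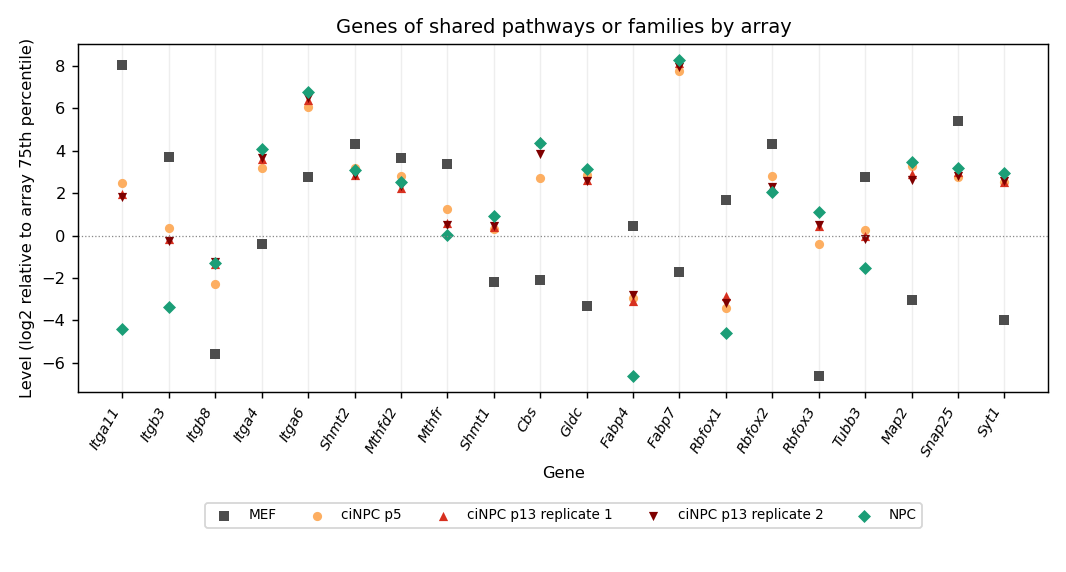
Level (log2 relative to the array's 75th percentile) on the MEF array, the 3 ciNPC arrays and the NPC array of integrin, one-carbon, fatty acid binding, Rbfox, cytoskeletal and synaptic genes, 1 point per array. Within each group some genes have MEF as the highest point (Itga11, Shmt2, Fabp4, Rbfox1, Tubb3, Snap25) and others as the lowest (Itga6, Gldc, Fabp7, Rbfox3, Map2, Syt1).

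Growth factor receptors had 10 of 49 higher (20.4%) and 15 lower (30.6%), beside 15.3% of all genes each way, and a median of -0.21. The platelet-derived growth factor receptor gene Pdgfrb had 1.32, 0.90 and 0.77 against 4.99 (difference -4.00, SE 0.26), and Acvrl1 (-3.78) and Epha3 (-3.23) were lower. Erbb4, a neuregulin receptor, was not above background in MEF and had -0.43, -0.10 and -0.43 (at least 15.7-fold higher), and the ephrin receptor gene Ephb1 was at least 23.9-fold higher. The receptor gene Kit was at least 18.5-fold higher (-0.01, -0.07 and -0.17) and its ligand gene Kitl rose from -2.92 to 0.21, 1.12 and 0.46 (3.51, SE 0.36), so that both receptor and ligand rose. The neuregulin gene Nrg1, a ligand of the Erbb family, moved against its receptor, at -0.10, -0.67 and -0.51 against 3.51 (-3.93, SE 0.27). Egfr (3.66, 4.03 and 3.94 against 3.91) did not pass.

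Secreted growth factors and cytokines had 19 of 43 lower and 4 higher (median -1.80, or -1.48 at the lowest measurable signal). The 3 TGF-beta genes were lower: Tgfb1 had -1.44, -1.84 and -1.38 against 1.88 (difference -3.44, SE 0.34), Tgfb2 differed by -2.31 and Tgfb3 by -2.46. The chemokine gene Cxcl1 was lower by a difference of -4.12 (SE 0.56) and above background on 2 of 3 ciNPC arrays. In contrast Cxcl10 rose from -1.47 to 1.69, 1.20 and 0.95 (2.75, SE 0.29), Ccl5 from -0.95 to 1.40, 1.03 and 1.00 (2.10, SE 0.25) and the stress cytokine Gdf15 from 0.76 to 2.78, 2.89 and 2.82. Both chemokines that rose were lower on the NPC array than on every ciNPC array (-0.16 and -4.61).

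Antigen presentation genes had 9 of 18 lower and 1 higher (median -1.04). The peptide loading genes Tap2 (difference -1.91, SE 0.19) and Tapbp (-2.06, SE 0.21) and the class I gene H2-M3 (-2.23, SE 0.43) fell, while the light chain gene B2m (4.83, 4.29 and 4.31 against 4.90) did not pass. The regulator Nlrc5 was higher by 1.77 (SE 0.47) and lost that call without p13 replicate 1 and in several other settings.

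Chromatin regulators had a median of 0.40, with 12 of 43 higher (27.9%) and 5 lower (11.6%), beside 15.3% of all genes each way. By the mean of all probes 3 were lower. Chd7, a remodeller of neural crest and progenitors, had 4.56, 4.63 and 4.54 against 0.96 (difference 3.62, SE 0.12, adjusted p 6.39e-06). Dpf3, a subunit of neural BAF remodelling complexes, was at least 8.70-fold higher, and Tet1, which oxidises methylated DNA, differed by 2.62 (SE 0.19). The Polycomb methyltransferase genes parted, with Ezh2 higher (2.14, SE 0.13) and Ezh1 lower (-1.37). The catalytic subunit gene Smarca4 (6.06, 6.21 and 6.20 against 6.15) did not pass. Smarcd2 was lower by a difference of -1.94 (SE 0.31), and Arid1b by -1.53 on its brightest probe, while its other measurable probes differed by 0.01 to 0.35.

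Marker lists of other cell types show what else the samples may hold. All 12 fibroblast markers stayed above background on every ciNPC array although 11 of them were lower, among them Thy1 (4.61, 4.37 and 4.22 against 8.0, difference -3.60, SE 0.17), Dcn (-4.08), Fap (-2.49) and Lum (-1.99). On the NPC array 7 of the 12 were above background. The 12 neural progenitor markers were all above background on every ciNPC array, and 6 were in MEF. Some markers were not above background on any of the 4 arrays: Ptprc of blood cells, Cdh5, Tek and Tie1 of endothelium, and Cdh1 of epithelium. The same held for Neurod1, Slc17a6 and Gad1 of neurons, Erbb3 of Schwann cells, and Myod1, Myf5 and Ckm of skeletal muscle. It also held for Pou5f1 and Zfp42 of pluripotent cells. Other members of each of these lists were measurable. On the ciNPC arrays 7, 5 and 8 of 9 macrophage markers were above background (6 in MEF), and 1, 3 and 3 of 7 endothelial markers (4 in MEF). For epithelium these were 3, 3 and 6 of 7 (5 in MEF), and for neurons 5, 5 and 6 of 9 (4 in MEF). Of the other markers, Itgam of macrophages (3.32, 3.55 and 3.43 against 5.78) was lower on its brightest probe, with its other measurable probes between -0.34 and 0.43, and Csf1r (-1.04) was lower on its brightest probe, with its other measurable probes at -0.47 and -0.03. The call on Csf1r was lost in 6 settings, among them the mean of its probes (-0.51, adjusted p 0.437) and the fit without ciNPC p5 (-0.87). Kdr of endothelium was lower on its brightest probe (2.07, 2.60 and 2.70 against 4.04), its other measurable probe differing by 1.27. The part of any other cell type in the differences was not tested.

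Single markers of other lists moved too. Myog, the muscle factor myogenin, was at least 6.18-fold higher (-1.02, -1.84 and -2.14, and not above background in MEF or NPC), while Acta1, skeletal actin, was lower (difference -3.03, SE 0.27). Esrrb, a nuclear receptor of pluripotent cells, rose from -3.14 to 1.88, 2.83 and 2.92 (5.68, SE 0.39), with 3.47 on the NPC array. Nanog did not pass, except with the mean of its probes (-1.10) and without p13 replicate 2 (-1.08). Abcc9, a pericyte potassium channel subunit, was at least 7.15-fold lower.

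The ciNPC arrays differed among themselves in a recurring order. Among all 2483 lower genes, ciNPC p5 lay above both p13 arrays, that is nearest to MEF, for 1424 (57.3%), and below both for 591 (23.8%). In the matrix lists this share was 90.9% of lower fibrillar collagens (10 of 11), 82.4% of elastic fibre genes (14 of 17), 80.0% of matricellular genes (24 of 30) and 81.2% of basement membrane genes (13 of 16), and all 11 lower fibroblast markers had p5 highest. Among the 2483 higher genes p5 was below both p13 arrays for 1012 (40.8%) and above both for 963 (38.8%), whereas of the 28 higher neural transcription factors 19 (67.9%) had p5 lowest. In mitosis genes the order turned: 19 of 30 (63.3%) higher members had p5 highest. In the deposited value table p5 lay above both p13 arrays for 65.6% of all lower genes and for 11 of 11 fibrillar collagens. With 1 p5 array this order has no replicate check.

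Among the genes that passed and varied most between the ciNPC arrays were Scrg1 (-3.29, -0.09 and -2.69), the lactate exporter gene Slc16a3 (3.23, 1.78 and 0.60 against 5.71 in MEF), the carbonic anhydrase gene Car3 (1.98, 4.58 and 4.42 against -3.74) and Trim9 (0.38, 1.81 and -0.42 against -3.51). For Car3 p5 stood apart from both p13 arrays, while for Trim9 the p13 arrays stood apart from each other. Scrg1 lost its call under quantile normalisation (adjusted p 0.113), and Slc16a3 (0.0774) and Trim9 (0.0501) lost theirs without the intensity trend. At the other end, Actb, cytoplasmic actin and a common reference gene, had 9.08, 9.42 and 9.38 against 9.56 and did not pass (adjusted p 0.251). The ribosomal protein genes Rps14 (8.88, 9.04 and 9.17 against 9.43) and Rpl41 (8.92, 9.07 and 9.15 against 9.41) did not pass either.

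Other probes of the same genes mostly moved with the probe used. For higher genes 727 further probes of 608 genes were measurable, and 91.3% had the same sign and 66.6% the same sign and at least 2-fold. For lower genes these shares were 87.0% and 53.9% of 863 probes of 718 genes.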

How the data were processed

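Gene expression was measured on 5 one-colour Agilent arrays: 1 MEF, 3 ciNPC and 1 NPC. Per the submitters' processing notes and the file headers, the intensity files were made with Agilent Feature Extraction 10.7.1.1, and gProcessedSignal is a background-subtracted intensity deposited by the authors before any scaling between arrays. Values in the deposited series table are log2, with a median of 5.64 on every array and correlations of 0.995 to 0.999 with the log2 intensity of the same array. Its scaling is not given in the sources used here, and equal medians fit quantile normalisation.

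Control spots and outlier spots were removed, spots of a probe were averaged, and each array's 75th percentile was subtracted on the log2 scale. A probe counted as above background where most of its spots had the scanner flag for it. Of 55681 probes 29676 could be named, 26582 of them through accessions in the RefSeq table (GRCm38.p6), giving 21983 genes. Each gene was represented by its probe with the highest mean level. Tested were the 16228 genes above background on all arrays of MEF, ciNPC p5, ciNPC p13 or NPC. Probe coordinates are those of the array files (mm9).

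limma 3.58.1 in R 4.3.3 (lmFit, eBayes with an intensity trend) was fitted to 5 arrays in 3 groups, and ciNPC minus MEF was tested with 2 residual degrees of freedom. Genes with an adjusted p (Benjamini-Hochberg) under 0.05 and a change of 2-fold or more passed. The script was tested on simulated data. Where a gene was not above background on one side, a fold is a bound against the lowest signal above background on that array. The adjusted p printed beside a bound comes from the fit on the values as measured, including those below that signal. The number of arrays limits the precision.

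The arrays and the 22 gene lists were chosen with earlier results of these data known. Genes were named as the 10 strongest from background, to background, and among measurable genes in each direction; up to 3 extremes each way and the least changed member per list; the 10 brightest in MEF; the 5 most variable; and cell type markers. Other genes named were chosen after their values were seen, and some genes that the rule names are not reported here. Alternatives were other scalings, background correction, filters, probe choice, variance model and leaving out arrays. The order of the ciNPC arrays in the deposited value table was an alternative added after seeing the data.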

Additional observations from a re-analysis of the deposited data

How the results depend on the processing

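The number of genes higher in ciNPC ranged from 1999 (normexp) to 2895 (75th percentile over probes above background on all arrays) around 2483, and the number lower from 2033 (that same percentile) to 2516 (without the NPC array). Leaving out 1 ciNPC array gave 2318 to 2630 higher and 2385 to 2996 lower genes. Genes from background numbered 382 by the representative probe alone and 415 to 447 with 1 ciNPC array left out, against 367. Genes to background numbered 1288 and 1310 to 1757, against 1243. All of these stayed within 1.5 times the reported counts. The median difference over all genes was -0.093 as reported and 0.063 with the alternative percentile. Of 236 named genes, 201 kept direction and side of the threshold in every alternative that gave a value. With the mean of all probes of a gene, 2 reversed: Ncam1 to 0.062 and Nova1 to 1.26. The cause was not tested. No paired analysis was possible because the labels give no replicate number that MEF and ciNPC share, and the number 1 assigned here to an array of each group is only a name. The slide as a block could not be fitted, since each slide held either ciNPC or MEF. Among the MEF and ciNPC arrays, the limit of measurement was lowest on MEF (-4.29) and highest on ciNPC p13 replicate 2 (-2.79), so loss to background is measured less deeply than gain from it.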

Other observations

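Among genes grouped by the stem of their symbol, a grouping made after the values were seen, the zinc finger protein genes named Zfp were higher in 102 of 355 cases (28.7%) and lower in 21 (5.92%), beside 15.3% of all genes in each direction. Their median difference was 0.62. Over the other scalings the higher count ranged from 71 to 123 and the lower from 15 to 17, below the 21 reported. Genes of the nuclear pore (Nup) were higher in 10 of 19 cases, and in 8 to 11 under the other scalings. Genes of the Hoxa cluster, which give cells of the trunk and limbs their position, were lower in 7 of 12 cases (7 to 8). Hoxa was the only Hox cluster with the 12 tested genes that the grouping required. The other clusters held lower genes too, such as Hoxb7 (-2.85), Hoxc9 (-3.13) and Hoxd4 (-2.52). Hoxb4 (-0.73) and Hoxd13 (-0.34) did not pass. Prolyl isomerase genes named Fkbp were lower in 6 of 13 cases (5 to 6). Ribosomal protein genes had median differences of -0.50 (Rpl) and -0.46 (Rps), which were -0.05 and -0.03 under quantile normalisation.

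Neighbouring genes sometimes moved together. Runs of at least 5 tested neighbours that passed in the same direction were searched for, and some of them are given here. How often such runs arise by chance was not tested. On chromosome X, 7 tested neighbours from Gprasp1 to Bex4 were all higher, by 1.46 (Gprasp1), 5.05 (Gprasp2), 2.01 (Bhlhb9), 1.12 (Arxes2) and 3.51 (Arxes1) on the log2 scale, and for Bex2 and Bex4, not above background in MEF, by at least 1661-fold and 221-fold. On chromosome 7 the neighbours Ndn, Magel2, Mkrn3 and Peg12, genes known to be imprinted, were higher, and so was Otud7a (1.05), the next gene tested. Ndn, Magel2 and Peg12 differed by 1.23, 2.34 and 2.38, and Mkrn3, not above background in MEF, was at least 5.82-fold higher. On chromosome 13 the histone genes H3c3, H2bc3, H2ac4, H3c1 and H1f1 were higher by 1.39 to 2.38. The longest run of lower homeobox genes lay on chromosome 15, from Hoxc11 to Hoxc6, with differences of -1.66 (Hoxc6) to -3.13 (Hoxc9). Hoxc8 was not above background on any ciNPC array and was at least 4.47-fold lower, and Hoxc11 was above background on 1 of 3. Of genes probed on chromosome X 20.9% were higher, the largest share of any chromosome, and on chromosome 19 the share was 12%, the smallest.

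Of the 10 brightest MEF probes, Col1a2 passed as lower, and Actb, Sparc, Rps14, Fau and Rpl41 did not pass both limits. The probes named F10, Kctd14, Slc10a1 and Elk1 did not pass both limits either. Further probes of F10 and Slc10a1 were not above background in MEF, and of 2 further probes of Kctd14 1 was. T, the mesoderm factor brachyury, was above background on every ciNPC array and not in MEF, at least 4.25-fold higher. Its levels were low, at -1.55, -2.40 and -2.66, where the lowest measurable level of p13 replicate 2 was -2.79. On the NPC array T was above background as well (-2.15).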
